A study of Mus musculus with 2 samples.

Results

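Keratins and claudins are gene families of epithelial cells, and 10 epithelial genes are described here in 2 libraries of mouse neural tube RNA. They comprise 4 keratins (Krt8, Krt18, Krt5 and Krt14), 3 claudins (Cldn3, Cldn4 and Cldn7), the adhesion genes Epcam and Cdh1, and the transcription factor gene Foxn1. They are 10 of the 43346 genes in the tables. They were chosen by their measured difference between the 2 libraries, so the size and direction of that difference is given as a description, with no test, and supports nothing else. Replicate 1 was a pool of neural tubes from 78 embryos and replicate 2 a pool from 62, each of strain B6NCrl, aged 15.5 days and of both sexes. Extraction used a mirVana kit and kept RNA above 200 nucleotides, of which 10 ng was used per library together with spike-in RNAs; the labels link the user guide of a SMARTer kit for low input. The libraries form 1 group without treatment or genetic change, so no comparison between conditions exists, and any spread is that between these 2 pools.

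Epithelia are sheets of cells held together by junctions. Keratins build their intermediate filaments as obligate pairs of a type I and a type II protein: Krt18 with Krt8 in simple, single-layered epithelia, and Krt14 with Krt5 in the basal layer of stratified epithelia. Claudins seal the tight junctions, and Cdh1, or E-cadherin, joins neighbouring cells at adherens junctions, whereas the neural tube uses Cdh2, or N-cadherin, after its closure. Foxn1 drives the differentiation of thymic epithelium and also acts in skin and hair follicles.

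Transcript abundance is given in TPM, a unit of relative transcript number corrected for transcript length and library depth. Expected counts of genes summed to 34678043 in replicate 1 and 41355355 in replicate 2. Spike-ins took 5.001% and 5.42% of TPM. The tissue label was checked on 10 neural genes: all 10 reached 1 TPM in both libraries, their TPM summed to 2924 in replicate 1 and 3660 in replicate 2, and each of the 10 was higher in replicate 2. Tubb3, the neuronal tubulin, stood at 1060 and 1275 TPM, and Fabp7, a fatty acid carrier of radial glia, at 1417 and 1833 TPM.

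All 10 epithelial genes reached 1 TPM in replicate 1, and 5 did in replicate 2 (Krt8, Krt18, Krt14, Epcam and Cdh1). Their TPM summed to 719 in replicate 1 and 10.7 in replicate 2, a ratio of 67.5. Krt8 and Krt18 made up 72.3% of that sum in replicate 1 and 33.2% in replicate 2. A gene is called apart between the libraries where the log2 ratio of TPM + 1 was at least 1 either way, the mean was at least 5 TPM and at least 50 expected counts were summed over both libraries. Of all 11969 genes past those level filters, 3.34% were apart with replicate 1 higher and 0.134% with replicate 2 higher. A gene low in replicate 2 passes the mean of 5 TPM only where replicate 1 is high. Counts of apart genes by list are therefore descriptions and test nothing. Of the 10 epithelial genes, 7 passed the level filters and those 7 were apart with replicate 1 higher, which follows from how they were chosen. Krt14, Cldn4 and Foxn1 fell under the mean of 5 TPM, at 3.29, 4.22 and 4.84 TPM. The median log2 ratio of the 10 genes was 3.80, against 0.0071 over the genes past the filters. In bulk RNA, fewer cells of a type and less RNA per cell cannot be told apart.

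**Figure D1:**
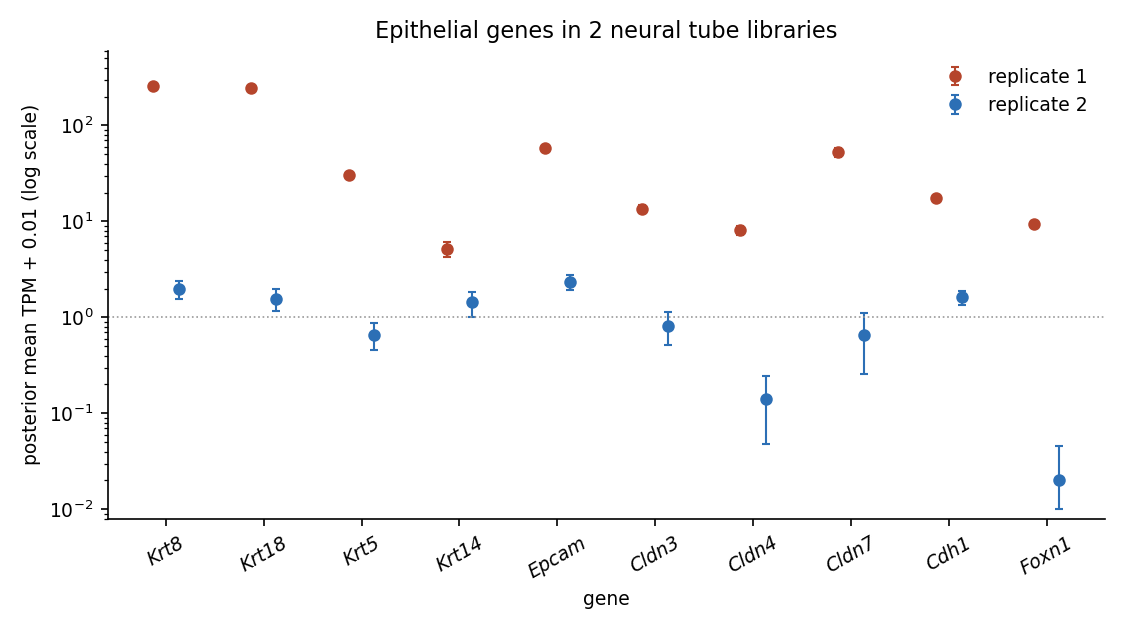
Posterior mean TPM of the 10 epithelial genes in each library, on a log10 axis after adding 0.01 TPM, with the authors' deposited interval bounds as error bars and a dotted line at 1 TPM. All 10 genes lie above the line in replicate 1, from 5.12 TPM for Krt14 to 259 TPM for Krt8, whereas in replicate 2 the highest gene, Epcam, stands at 2.34 TPM.

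The 250 bases before the annotated start of each gene were read from RefSeq promoter windows (build GRCm38.p6), which held 9 of the 10 genes in 10 windows. A set of 7 short motifs was searched on both strands. The E2 box CACCTG, the letters bound by the Snail and Zeb repressors of epithelial genes, reads CAGGTG on the other strand. It occurred in 17.2% of all 32851 windows and in windows of 6 of the 9 genes: Krt8, Krt18, Krt5, Epcam, Cldn4 and Cldn7. Windows of 4 of these genes are shown 5′ to 3′ on the gene's strand, in lower case with the E2 box in capitals, because they place the word relative to the starts of genes from each of the families. The Krt18 window (chr15:102027966-102028179, plus strand) leaves out the last bases before the RefSeq start, which GENCODE counts as exon. The Krt5 window is chr15:101712906-101713155 on the minus strand, the Epcam window chr17:87635729-87635978 on the plus strand and the Cldn4 window chr5:134946935-134947184 on the minus strand.
Krt18: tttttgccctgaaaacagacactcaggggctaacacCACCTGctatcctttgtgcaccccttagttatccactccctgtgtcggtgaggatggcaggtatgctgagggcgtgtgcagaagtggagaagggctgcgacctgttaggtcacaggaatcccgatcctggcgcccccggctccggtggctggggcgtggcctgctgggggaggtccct
Krt5: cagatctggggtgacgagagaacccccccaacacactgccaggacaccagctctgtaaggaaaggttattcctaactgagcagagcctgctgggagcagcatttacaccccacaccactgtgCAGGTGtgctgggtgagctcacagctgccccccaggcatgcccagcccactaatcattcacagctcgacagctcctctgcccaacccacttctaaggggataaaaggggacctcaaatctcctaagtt
Epcam: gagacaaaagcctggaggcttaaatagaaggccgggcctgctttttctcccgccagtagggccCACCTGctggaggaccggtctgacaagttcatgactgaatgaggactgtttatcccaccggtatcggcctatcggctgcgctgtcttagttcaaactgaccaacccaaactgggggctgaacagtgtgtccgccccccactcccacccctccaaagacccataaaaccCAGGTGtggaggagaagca
Cldn4: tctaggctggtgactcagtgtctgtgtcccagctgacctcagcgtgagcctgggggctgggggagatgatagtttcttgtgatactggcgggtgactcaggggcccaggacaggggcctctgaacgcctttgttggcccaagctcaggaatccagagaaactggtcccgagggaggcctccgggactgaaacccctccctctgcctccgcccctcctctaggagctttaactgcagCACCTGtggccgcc

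The E2 box began 214 bases before the RefSeq start in Krt18, 128 in Krt5, 111 in Krt8 and 14 in Cldn4. Epcam held the word at 187 and 19 bases before its start, and 1 of the 2 Cldn7 windows held it at 97 and 57 bases. The Krt8 word and that whole Cldn7 window lie inside the span of the gene in GENCODE, downstream of its first base there. The GC box GGGCGG occurred in 32.7% of all windows and in 5 of the 9 genes (Cldn3, Cldn4, Cldn7, Epcam and Foxn1), none of them a keratin. The AP-1 word TGANTCA (6.75% of all windows) occurred in Cldn4 alone of the 9, at 240 and 158 bases before the start. The CCAAT box (33.8% of all windows) occurred in Foxn1 alone of the 9. The Grainyhead word AACCNGTT (1.79%), the TATA box TATAAA (12.4%) and the forkhead word TGTTTAC (3.17%) were in 0 of the 9 genes within these 250 bases. GC content over these 250 bases ran from 49.6% to 63.2% for the 9 genes, beside a median of 52.4% over all windows. A match is a description of the letters, not a bound site.

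Of all keratins in replicate 1, the simple pair Krt8 and Krt18 was the most abundant, and its members stood near equal amounts in both libraries. In replicate 2, 6 other keratin genes, led by Krt1, exceeded Krt8. Krt8 (ENSMUSG00000049382.9; mm10 chromosome 15, 101996698 to 102004482, minus strand), the type II keratin of simple epithelia, stood at 266 TPM in replicate 1 and 1.97 TPM in replicate 2, from 10079 and 89 expected counts. Krt18 (ENSMUSG00000023043.6; chromosome 15, 102028180 to 102032027, plus strand), its type I partner, stood at 254 and 1.57 TPM, from 7319 and 54 expected counts. The genes lie 23.7 kb apart, and Krt18 is the one type I keratin gene placed beside the type II genes. In CPM, counts scaled to library depth alone, Krt8 was 135-fold higher in replicate 1 (exact 95% binomial interval 110 to 168) and Krt18 162-fold (124 to 215). These intervals overlap, and like all intervals and floors from counts here they cover counting error only and not the spread between pools. Krt8 was exceeded by 557 genes in replicate 1 and by 14235 in replicate 2. The ratio of Krt8 to Krt18 in TPM was 1.05 in replicate 1 and 1.25 in replicate 2 (log2 ratio 0.20 ± 0.18, SD, n = 2).

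The basal pair was lower and did not keep its ratio. Krt5 (ENSMUSG00000061527.6; chromosome 15, 101707070 to 101712898, minus strand), the type II keratin of basal cells, stood at 31.0 and 0.65 TPM, from 1439 and 36 expected counts. Its CPM was 47.7-fold higher in replicate 1 (95% interval 34.3 to 68.3). Krt14 (ENSMUSG00000045545.8; chromosome 11, 100203162 to 100207548, minus strand), its type I partner, stood at 5.19 and 1.40 TPM, from 134 and 49.9 expected counts, a CPM fold of 3.20 (2.29 to 4.52). The Krt14 interval lies below that of each of the other 8 genes with counts in both libraries. The ratio of Krt5 to Krt14 was 5.98 in replicate 1 and 0.464 in replicate 2, so the order of the pair was reversed between the libraries (log2 ratio 0.74 ± 2.61, SD, n = 2).

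The Krt14 difference lay mostly in a shorter transcript. The coding transcript (1698 nucleotides, 8 exons) stood at 1.25 TPM in replicate 1 and 0.78 TPM in replicate 2, a ratio of 1.603, and the authors' deposited bounds overlap (0.751 to 1.82 and 0.432 to 1.21 TPM). A processed transcript of 1122 nucleotides that starts inside the gene, within the first intron of the coding transcript, stood at 3.94 and 0.62 TPM, a ratio of 6.35 with bounds that do not overlap (2.84 to 4.87 and 0.0266 to 1.10 TPM). It held 75.9% of Krt14 TPM in replicate 1 and 44.5% in replicate 2. The 2 transcripts share exons, so the split of reads between them is a model estimate. Against the coding transcript alone, Krt5 was 24.8-fold higher in replicate 1, while in replicate 2 the coding transcript was 1.20-fold the level of Krt5. The 250 bases before that internal start (chr11:100206031-100206280, minus strand), the window that RefSeq gives for Krt14, are shown because the library difference of the gene sits downstream of them; they hold none of the 7 motifs.
Krt14 internal start: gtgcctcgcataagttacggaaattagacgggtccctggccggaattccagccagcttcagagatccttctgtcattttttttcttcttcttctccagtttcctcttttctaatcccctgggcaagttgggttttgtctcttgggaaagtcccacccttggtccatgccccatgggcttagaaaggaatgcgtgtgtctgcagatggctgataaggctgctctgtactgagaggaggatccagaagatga

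**Figure D2:**
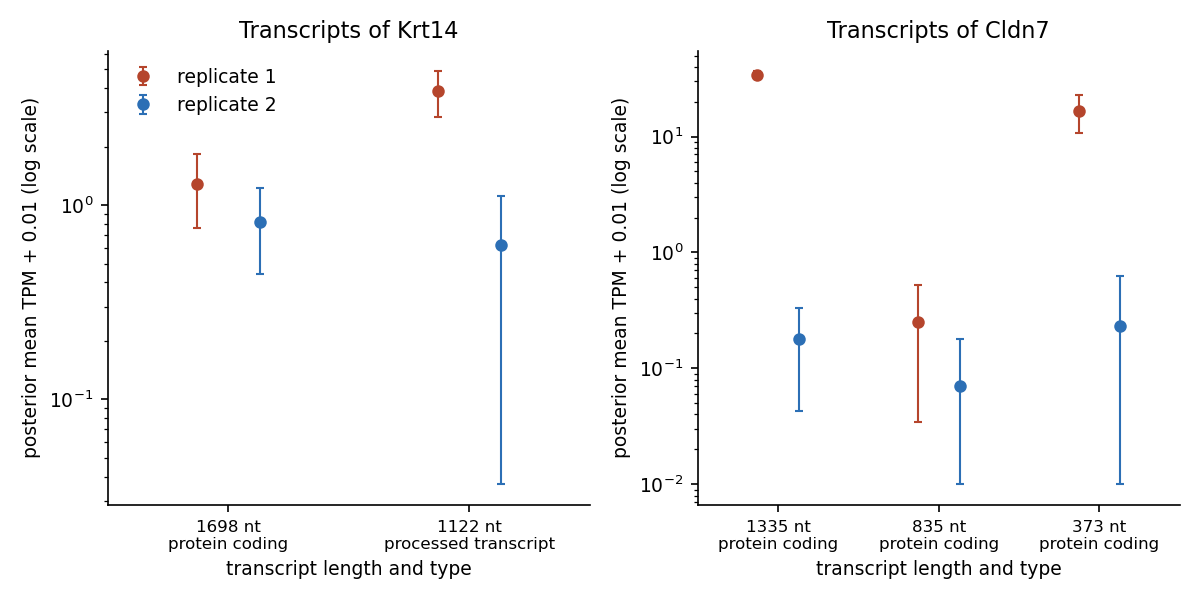
Posterior mean TPM plus 0.01 of the transcripts of Krt14 and Cldn7 that had TPM above 0, on log axes with their own ranges, with the authors' deposited bounds as error bars. The bounds of the Krt14 coding transcript overlap between the libraries (posterior means 1.27 and 0.81 TPM), those of its internal-start transcript do not (3.85 and 0.61 TPM), and the Cldn7 form of 1335 nucleotides stands at 33.9 and 0.17 TPM.

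Krt17, a type I keratin gene on chromosome 11 closely related to Krt14, stood at 52.5 and 0.60 TPM, from 1691 and 23 expected counts. Its counts were whole, whereas those of Krt14 and of its other close relative Krt16 (7.15 and 2.06 expected counts) were not. Krt14 and Krt5 are the 2 of the 10 genes whose expected counts were not whole in both libraries, so part of their reads was shared out by a model. How large that part was is not known. Both pairs differed in scale as well: the simple keratin exceeded the basal one among type II genes (Krt8 over Krt5) 8.58-fold in replicate 1 and 3.03-fold in replicate 2. Among type I genes, Krt18 exceeded Krt14 48.9-fold in replicate 1 and 1.12-fold in replicate 2.

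Of the 3 claudins, Cldn7 was the highest in replicate 1 and Cldn3 in replicate 2. Cldn3 (ENSMUSG00000070473.4; chromosome 5, 134986214 to 134987472, plus strand), a sealing claudin, stood at 13.8 and 0.78 TPM, from 355 and 24 expected counts, a CPM fold of 17.6 (95% interval 11.7 to 27.9). Cldn4 (ENSMUSG00000047501.2; chromosome 5, 134945119 to 134946934, minus strand) lies 39.3 kb from it and, like Cldn3, has 1 exon. Cldn4 stood at 8.33 and 0.11 TPM, from 316 and 5 expected counts, a CPM fold of 75.4 (32.0 to 234). Cldn7 (ENSMUSG00000018569.8; chromosome 11, 69964779 to 69967885, plus strand), a claudin of the lateral membrane as well as the tight junction, stood at 53.8 and 0.28 TPM. Its 1087 and 7 expected counts gave a CPM fold of 185 (89.6 to 462). The authors' posterior mean of Cldn7 in replicate 2 was higher, at 0.65 TPM. From posterior means the Cldn7 log2 ratio of TPM + 1 between the libraries was 5.02 in place of 5.42. The intervals of Cldn4 and Cldn7 overlap, and both lie above that of Cldn3.

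With 5 and 7 counts, the ratios among claudins in replicate 2 are imprecise. Cldn7 was 3.90-fold the level of Cldn3 in replicate 1, and in replicate 2 Cldn3 was 2.79-fold the level of Cldn7 (log2 ratio of Cldn7 to Cldn3 0.24 ± 2.43, SD, n = 2). Cldn3 exceeded Cldn4 in both libraries, 1.66-fold in replicate 1 and 7.09-fold in replicate 2 (log2 ratio of Cldn4 to Cldn3 -1.78 ± 1.48). Of the Cldn7 transcripts, the form of 1335 nucleotides held 66.1% and 68.8% of the TPM of the gene, and a fragment of 373 nucleotides 33.6% and 31.1%. From the authors' posterior means the share of the longer form was 64.4% in replicate 1 and 26.1% in replicate 2, where it rests on 7 counts.

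Both adhesion genes stayed above 1 TPM in replicate 2. Epcam (ENSMUSG00000045394.8; chromosome 17, 87635979 to 87651129, plus strand), the epithelial cell adhesion molecule, stood at 60.0 and 2.37 TPM, from 2585 and 122 expected counts, a CPM fold of 25.3 (95% interval 21.1 to 30.5). Cdh1 (ENSMUSG00000000303.8; chromosome 8, 106603351 to 106670246, plus strand) stood at 17.7 and 1.53 TPM, from 1704 and 176 expected counts, a CPM fold of 11.5 (9.88 to 13.6). Epcam exceeded Cdh1 in TPM 3.39-fold in replicate 1 and 1.55-fold in replicate 2. Cdh2, the neural cadherin, stood at 78.6 and 94.8 TPM and exceeded Cdh1 4.43-fold in replicate 1 and 61.9-fold in replicate 2. The order of the cadherins was thus the same in both libraries, with a log2 ratio of Cdh1 to Cdh2 of -4.05 ± 2.69 (SD, n = 2).

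Foxn1 (ENSMUSG00000002057.4; chromosome 11, 78357577 to 78386558, minus strand) stood at 9.69 TPM in replicate 1 and 0 in replicate 2, from 670 and 0 expected counts. With the count of 0 in replicate 2 set to a floor of 3 counts, or 0.0364 TPM, the Foxn1 CPM was 266-fold higher in replicate 1. The exact 95% binomial interval used for the other genes has a lower bound of 216-fold for Foxn1. It was the only one of the 10 genes with 0 counts in a library.

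By level, the order in replicate 1 was Krt8, Krt18, Epcam, Cldn7, Krt5, Cdh1, Cldn3, Foxn1, Cldn4 and Krt14. The authors' deposited bounds of neighbours in that order overlap for Epcam (56.3 to 60.8 TPM) and Cldn7 (47.2 to 58.2) and for Foxn1 (8.74 to 10.2) and Cldn4 (7.27 to 9.04). In replicate 2 the order was Epcam, Krt8, Krt18, Cdh1, Krt14, Cldn3, Krt5, Cldn7, Cldn4 and Foxn1. There the bounds of all neighbours from Epcam down to Cldn7 overlap, for example Epcam (1.93 to 2.76 TPM) with Krt8 (1.56 to 2.36), so only the places of Cldn4 and Foxn1 are set apart by them. Krt14 moved from the last place to the fifth, and Cldn7 from the fourth to the eighth.

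The rest of both families gave a mixed picture. Of 53 keratin genes, 14 reached 1 TPM in replicate 1 and 9 in replicate 2, and 6 were apart with replicate 1 higher: Krt8, Krt18, Krt5, Krt17, Krt19 and Krt7. Of these, Krt8, Krt18 and Krt5 are among the 10 genes chosen for their difference. Of 5 other simple keratins on a list, 2 passed the level filters and 2 were apart. Of 11 other stratified keratins, 3 passed and 1 was apart. Krt19, a type I keratin of simple and ductal epithelia, stood at 47.8 and 3.70 TPM, and Krt7, its type II counterpart in ducts, at 9.76 and 0.80 TPM. Krt20, a keratin of gut and urothelium, stood at 4.41 and 0.06 TPM, below the level filter. The keratins of the upper epidermis were close between the libraries: Krt1 stood at 7.17 and 10.2 TPM and Krt10 at 8.63 and 8.44 TPM. Krt15, a basal keratin, stood at 3.38 and 3.18 TPM, and Krt4, a keratin of the oesophagus and other internal stratified epithelia, at 2.79 and 2.32 TPM. The 4 keratins described first made up 78.3% of all keratin TPM in replicate 1 and 11.4% in replicate 2, where Krt1 alone held 20.7%.

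Summed over the family, the ratio of type II to type I keratins depended on 1 gene, Krt222, which stood at 10.3 and 9.68 TPM. The 25 type II genes summed to 321 and 18.4 TPM and the 28 type I genes, Krt222 included, to 389 and 30.8 TPM, a ratio of 0.827 in replicate 1 and 0.596 in replicate 2. Without Krt222, the other 27 type I genes summed to 378 and 21.2 TPM, and the ratio was 0.850 and 0.869. These sums were chosen after the values were seen. Krt8 held 82.8% of type II TPM in replicate 1, whereas Krt1 held 55.4% in replicate 2. Of type I TPM without Krt222, Krt18 held 67.0% in replicate 1 and Krt10 39.9% in replicate 2, where Krt222 stood above Krt10 (8.44 TPM).

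Of 33 claudin genes, 13 reached 1 TPM in replicate 1 and 7 in replicate 2, and 2 were apart, Cldn3 and Cldn7. Cldn5, the claudin of brain endothelium, led the family in both libraries at 99.4 and 91.1 TPM. Cldn34c1 stood at 25.8 and 29.8 TPM. Cldn11, a claudin of myelin and meninges, stood at 24.5 and 24.8 TPM, and Cldn12 at 12.9 TPM in both. Below the level filter, Cldn8, an epithelial claudin, stood at 8.51 TPM in replicate 1 and 0 in replicate 2, and Cldn6, a claudin of embryonic epithelia, at 6.66 and 0.08 TPM. Cldn23 stood at 4.79 and 1.31 TPM. Cldn3, Cldn4 and Cldn7 made up 28.2% of claudin TPM in replicate 1 and 0.690% in replicate 2.

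**Figure D3:**
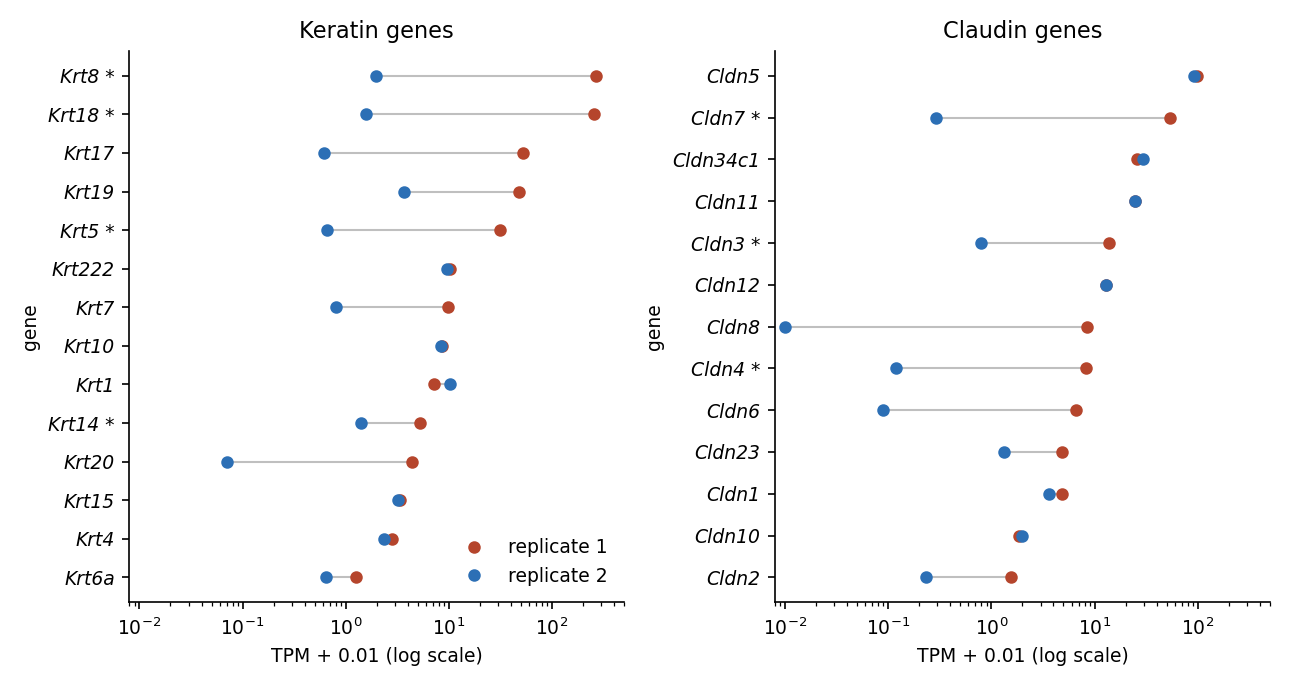
TPM plus 0.01, on a log axis, of the 14 keratin and 13 claudin genes that reached 1 TPM in a library, with a line joining the libraries of each gene and asterisks on the 7 keratins and claudins described in detail. The points of Krt10, Krt15, Cldn5, Cldn11 and Cldn12 nearly coincide, while Krt8, Krt18, Krt5, Krt17 and Cldn7 are far higher in replicate 1.

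Other junction genes were listed to set beside these. Of 15 further tight junction genes, all 15 were detected in both libraries and 11 passed the level filters. Of those 11, 1 was apart (F11r, the adhesion molecule JAM-A, at 22.6 and 9.74 TPM). The median log2 ratio of the 15 was 0.43. The F11r call was lost when the ratio was taken from CPM. Ocln, or occludin, stood at 10.9 and 5.48 TPM, Lsr, an organiser of junctions between 3 cells, at 30.5 and 15.5 TPM, and Crb3, an apical polarity protein, at 8.33 and 1.32 TPM. Of 9 adherens junction genes, 8 passed the level filters, 0 were apart and the median log2 ratio of the 9 was 0.22. Ctnnb1, or beta-catenin, stood at 221 and 189 TPM, and Ctnnd1, or p120-catenin, at 22.8 and 22.7 TPM.

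Of 19 desmosome and hemidesmosome genes, 6 passed the level filters and 2 of these were apart with replicate 1 higher. They were Dsc2, a desmosomal cadherin, at 12.7 and 1.58 TPM and Perp, a desmosome component, at 22.5 and 7.36 TPM. The median log2 ratio of the 19 was 0.81. Dsp, or desmoplakin, stood at 4.33 and 0.18 TPM and Pkp3, or plakophilin 3, at 7.62 and 0.26 TPM, both below the level filter, while Jup, or plakoglobin, which adherens junctions also hold, stood at 60.9 and 47.3 TPM. Of 11 epithelial surface and protease genes, 4 passed the level filters and 2 of these were apart with replicate 1 higher. They were Spint2, a protease inhibitor, at 108 and 47.0 TPM, and Ap1m2, an adaptor of epithelial sorting, at 8.74 and 1.43 TPM. The median log2 ratio of those 11 was 1.83. Spint1 stood at 9.01 and 0.40 TPM and its target protease St14, or matriptase, at 7.90 and 0.35 TPM, whereas Cd24a, which neurons also express, stood at 522 and 602 TPM.

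Of 15 regulators of epithelial transcription and splicing, 3 passed the level filters and all 3 were apart with replicate 1 higher. Trp63 and Elf3 reached the mean of 5 TPM only through replicate 1, so their calls follow from the filter. The median log2 ratio of the 15 was 1.28. Trp63, the factor of basal cells, stood at 11.1 and 0.12 TPM, Elf3 at 10.7 and 0.28 TPM and Klf5 at 11.8 and 5.03 TPM. The epithelial splicing factors Esrp1 and Esrp2 stood at 4.09 and 0.04 TPM and at 3.70 and 0.13 TPM, and Grhl2, a Grainyhead factor of epithelial junction genes, at 1.78 and 0.08 TPM. Tfap2a, a factor of ectoderm and neural crest that dorsal neurons also use, stood at 3.22 and 4.70 TPM. Among 8 mesenchymal switch genes, the repressors Zeb1 and Zeb2 stood at 34.8 and 31.9 TPM and at 33.4 and 34.5 TPM. Of these 8 genes, 6 passed the level filters. Snai2, a Snail-family repressor, was the 1 apart and was higher in replicate 1, at 18.2 and 2.72 TPM, beside Snai1 at 7.05 and 5.14 TPM. Of these 4 repressors that bind E2 boxes, only Snai2 was apart.

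Markers of organs that hold epithelia were set beside the 10 genes. Of 24 thymic epithelium genes, 17 passed the level filters and 12 of these were apart with replicate 1 higher. TPM of the 24 summed to 1224 and 242. Psmb11, the thymic proteasome subunit of cortical epithelium, stood at 22.3 and 0.03 TPM, Pax1, a factor of the thymus primordium, at 16.9 and 0.61 TPM, and Aire at 2.07 and 0.14 TPM. Ctsl, the highest of the list by mean, stood at 253 and 107 TPM and was apart. Kitl (21.4 and 19.1 TPM), Cd83 (36.8 and 26.2 TPM) and Fgfr2 (27.5 and 17.9 TPM) passed the level filters and were not apart. Of the 24, 1 was higher in replicate 2, Hoxa3 at 8.8 and 12.0 TPM. Of 20 thymocyte genes, 10 passed the level filters and 7 of these were apart with replicate 1 higher. TPM of the 20 summed to 451 and 89.3, with Cd3g, Cd8a and Cd7 at 0 in replicate 2. In replicate 1 these 3 stood at 93.0, 0.48 and 4.24 TPM. Cd4 (0.50 and 0.14 TPM) and Dntt (0.30 and 0.17 TPM) were low in both libraries. Of the 20, 16 reached 1 TPM in replicate 1 and 5 in replicate 2. Most of the replicate 2 sum came from Arpp21 (57.1 and 43.1 TPM), Bcl11b (18.1 and 17.6 TPM) and Gata3 (12.8 and 13.1 TPM). These passed the filters and were not apart, and Gata3 was the 1 gene of the 20 higher in replicate 2. Of 10 gut epithelium genes, 2 passed the level filters and both were apart with replicate 1 higher (Lgals4 at 70.3 and 4.47 TPM and Tff3 at 26.8 and 2.59 TPM). Both reached the mean of 5 TPM only through replicate 1, so this count is no result about the list. TPM of the 10 summed to 135 and 9.14. Cdx2, the intestinal homeobox factor, stood at 2.59 TPM in replicate 1 and 0 in replicate 2.

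Epidermal markers gave a split result. Of 10 epidermis genes, 6 passed the level filters and 2 of these were apart with replicate 1 higher. They were Sfn, or stratifin, at 26.7 and 1.42 TPM and Krtdap at 8.52 and 1.96 TPM, and the Krtdap call was lost from CPM. Sbsn, a protein of suprabasal keratinocytes, stood at 35.9 and 36.7 TPM and Lor, or loricrin, at 7.08 and 7.87 TPM. The epidermis sums were 99.8 and 69.9 TPM, and Ivl and Flg were at or near 0 in both libraries (0.05 and 0.01 TPM in replicate 1, and 0 in replicate 2). Of 6 measured mesothelium genes, 1 passed the level filters and was apart, Krt19, which is also a simple keratin. TPM of the 6 summed to 61.2 and 9.83. Without Krt19, the other 5 mesothelium genes summed to 13.4 and 6.13 TPM, with Msln at 1.14 and 0.79 TPM and Wt1 at 3.66 and 2.17 TPM. Thymic epithelium, thymocyte and gut sums moved with the 10 genes, and their part in the result was not tested.

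**Figure D4:**
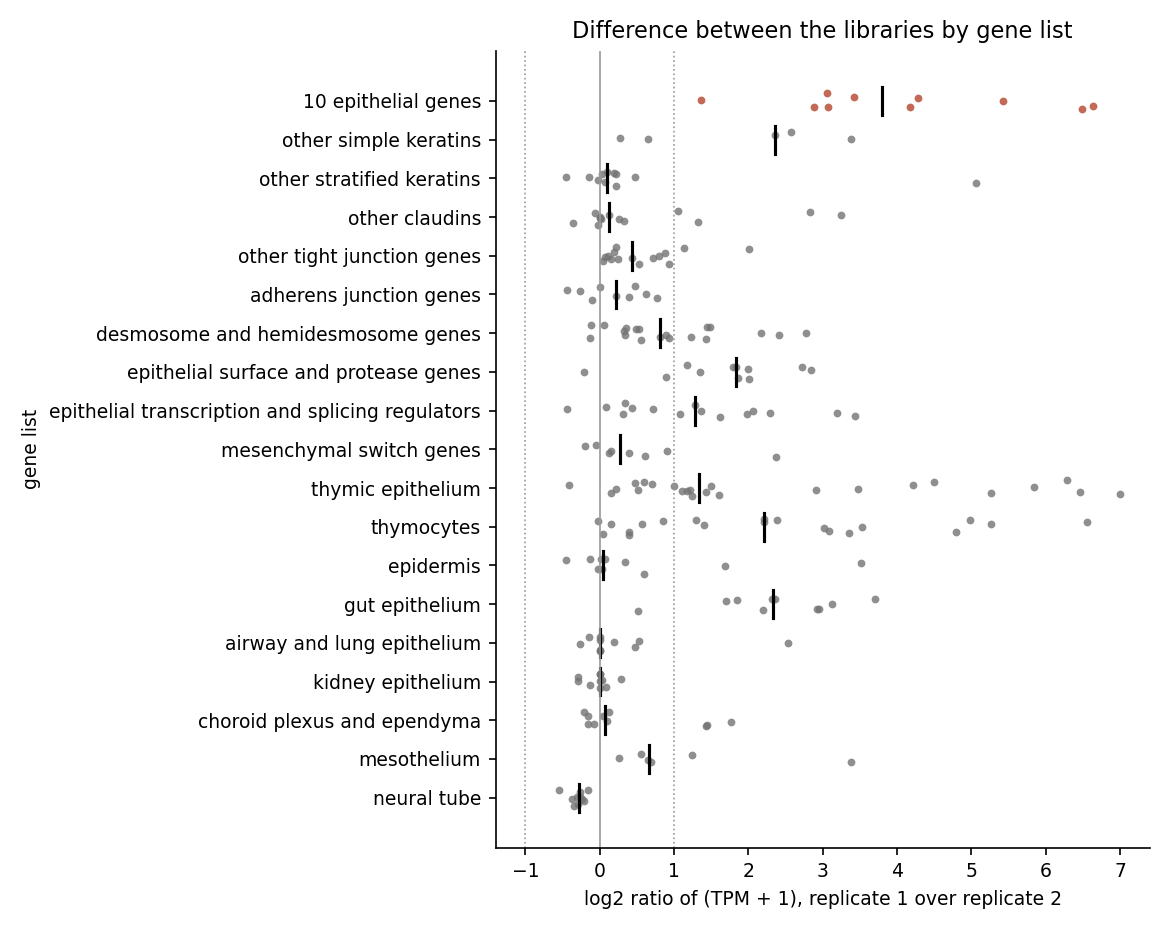
Log2 ratio of TPM + 1, replicate 1 over replicate 2, for each gene of the described set and the 18 wider lists, on the x axis, with 1 point per gene, a row per list, black bars at the medians and dotted lines at 1 and -1. The described genes lie between 1.37 and 6.63, the neural tube genes between -0.55 and -0.16, and the thymic list spreads from -0.41 to 7.00.

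Outside all lists, the 10 protein-coding genes whose log2 ratio lay nearest the median of the 10 epithelial genes were within 0.28 of it on the log2 scale, over 2 libraries. In order of nearness they were Cnn1, Lypd8, Ccl21a, Akr1c12, Guca2a, Slamf6, Myh11, Slc5a9, Psmb8 and Tcf21. Cnn1, a calponin of smooth muscle, stood at 17.8 and 0.40 TPM and Myh11, the smooth muscle myosin, at 14.9 and 0.31 TPM. Ccl21a, a chemokine of lymphoid stroma, stood at 24.3 and 0.91 TPM, Slamf6, a receptor of lymphocytes, at 12.6 and 0.11 TPM, and Psmb8, an immunoproteasome subunit, at 61.9 and 2.83 TPM. Guca2a, the gut peptide guanylin, stood at 12.1 and 0 TPM, and Tcf21, a factor of visceral mesenchyme, at 17.1 and 0.07 TPM.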

How the data were processed

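RNA of 1 group was measured in 2 libraries, biological replicates per the labels. The authors deposited a gene and a transcript table per library (build mm10, GENCODE M4, per the notes deposited beside them). Which aligner and quantifier were run, and whether strand was used, remains not given in the sources used here. Those tables, as deposited by the authors, give an expected count per entry, TPM, posterior mean TPM and, for transcripts, their percent of gene TPM, per the file headers. The interval bounds of the posterior TPM, a score as deposited, carry no stated level. Spike-ins (96), 26248 number-only entries and 1 other entry were left out.

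Symbols and coordinates came from GENCODE M21 (GRCm38), matched by identifier without version (42462 of 43346). The 10 genes, the 18 wider lists (with 1 gene, Muc16, not analysed here) and all thresholds were chosen with earlier results of these data known. Fold changes are log2((TPM + 1) ratio) between the libraries, with a pseudocount of 1 TPM, which understates changes of low genes. With 1 group of 2 libraries no test was made. Count intervals (95%) are exact, and a count of 0 was given a floor of 3 counts. Named genes were all 10, the 10 nearest genes and part of each wider list. The rule for those lists allowed up to 4 genes with the highest mean and up to 3 with the largest ratio. Not all of these were named, and others were named after their values were seen. Alternatives were another pseudocount, threshold, filter and detection limit, edgeR 4.0.16 TMM and DESeq2 1.42.0 scaling of rounded expected counts (R 4.3.3), spike-in scaling, posterior means and each library alone. Python 3.11.15, numpy 2.4.6, scipy 1.17.1, pandas 2.3.3 and matplotlib 3.10.9 did the rest. The rule that calls a gene apart was tested on simulated counts, and the other steps were not.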

Additional observations from a re-analysis of the deposited data

How the results depend on the processing

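In 50 of 50 recomputed log2 ratios of the 10 genes (5 alternatives each), replicate 1 stayed higher, from 1.11 to 7.25. The genes were chosen for that difference and the alternatives reuse the same reads, so this is a description and no support. The log2 ratios within 2 gene pairs changed sign: Cldn7 to Cldn3, 0.24 as a mean, was -0.082 from CPM and -1.48 to 1.96 by library, and Krt5 to Krt14, 0.74 as a mean, was -1.11 to 2.58 by library. The count of these genes apart was 7 under 6 of the 8 alternatives and 10 with no filter or a filter at a mean of 1 TPM, a setting added after seeing the data. Detection in both libraries fell from 5 genes to 0 at 5 TPM and was 7 at 0.5 TPM; taking 1 library alone gave 5 to 10. Over all genes, the 400 apart with replicate 1 higher became 145 at a log2 threshold of 2, 1099 with no filter and 806 at a mean of 1 TPM. The 16 with replicate 2 higher became 1, 181 and 31. Of the 212 genes on the wider lists and not among the 10, 35 were apart with replicate 1 higher. They became 81 with no filter and 75 at a mean of 1 TPM. With no filter, the 1099 apart over all genes were out of 43346. From CPM, which is not divided by length, the log2 ratio of Krt8 to Krt18 was 0.59 in place of 0.20 and that of Epcam to Cdh1 0.036 in place of 1.20. The mean share of the 1335-nucleotide Cldn7 form was 45.2% from posterior means in place of 67.5%. The cause of these changes was not tested beyond the settings themselves. Spike-in scaling moved the median of all filtered genes from 0.0071 to 0.12. Low counts limit replicate 2: 5 for Cldn4, 7 for Cldn7 and 0 for Foxn1. No paired analysis was possible because the study has 1 group.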

Other observations

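Lists of other epithelia held no gene apart between the libraries, with 1 airway and lung gene, 3 kidney genes and 3 choroid plexus and ependyma genes past the level filters. Without those filters, 1099 of all 43346 genes were apart with replicate 1 higher. On that basis, 1 of 10 airway and lung genes (Cbr2, at 8.88 and 0.71 TPM) and 3 of 10 choroid plexus and ependyma genes were apart with replicate 1 higher. The same count was 17 of 24 for thymic epithelium, 13 of 20 for thymocytes, 9 of 10 for gut and 2 of 10 for epidermis. It was 9 of 15 for the regulators, 9 of 11 for surface and protease genes and 7 of 19 for desmosome and hemidesmosome genes. For tight junction genes it was 2 of 15, and for adherens junction genes 0 of 9. Nkx2-1, Sftpa1, Scgb1a1 and Scgb3a2 were at 0 in both libraries, and the surfactant gene Sftpc stood at 0.38 and 0.21 TPM. Sox9, which glia and cartilage also express, stood at 28.8 and 31.8 TPM. The sums of the 10 kidney genes were 71.0 and 83.0 TPM. Most of that came from Pax8 (31.2 and 34.4 TPM), Lhx1 (24.9 and 30.9 TPM) and Pax2 (13.6 and 16.9 TPM), which spinal interneurons also express, while Umod and Aqp2 were at 0 in both libraries. Of the choroid plexus genes, Folr1 stood at 7.16 and 1.40 TPM, Clic6 at 2.85 and 0.41 TPM, and the cilia factor Foxj1 at 9.32 and 9.92 TPM.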
